A study of Mus musculus with 96 samples.

Results

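The protein folding machinery of the endoplasmic reticulum (ER) and its stress regulators were followed through 10 genes in single leukaemic cells: Hspa5, Hsp90b1, Calr, Canx, Pdia3, Pdia4, Pdia6, Sdf2l1, Xbp1 and Ddit3. All 10 were found by symbol among the 23955 genes of the expression table. The cells were 96 splenocytes from 2 moribund mice with acute myeloid leukaemia, selected on c-Kit (CD117) beads, 48 cells from mouse 2 and 48 from mouse 1. Both mice had the genotype Flt3ITD/ITD;Dnmt3afl/- MxCre, in which both copies of Flt3 carry an internal tandem duplication, 1 copy of Dnmt3a is deleted and the other is flanked by loxP sites, and Cre is driven by the interferon-inducible Mx1 promoter; their ages are not given in the sources used here. Since both animals carried the same alleles and no control cells were analysed here, no value below measures an effect of Flt3 or Dnmt3a. The labels describe 2 capture rounds of which 48 cells each were sequenced, and each mouse had its own column prefix, with no exception, so that mouse and capture round cannot be told apart.

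Secreted, membrane and granule proteins enter the ER as unfolded chains. Hspa5 (BiP) and Hsp90b1 (Grp94) are its main chaperones, calnexin (Canx) and calreticulin (Calr) hold glycoproteins while they fold, and protein disulfide isomerases (Pdia3, Pdia4, Pdia6) form and reshuffle their disulfide bonds. When unfolded protein accumulates, the unfolded protein response raises these genes through the transcription factors ATF6 and XBP1, while prolonged stress induces Ddit3 (CHOP), a factor linked to cell death. Myeloperoxidase (Mpo), a heavily glycosylated enzyme of azurophilic granules, folds in the ER with calnexin and calreticulin, and its transcript was followed beside the members.

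The regulatory sequence that links several members is the ER stress response element (ERSE), in which CCAAT and CCACG are separated by 9 bases. It was searched on both strands in the 250 bases before the annotated start in RefSeq (GRCm38.p6). It was present in 5 of the 10 members (Hspa5, Hsp90b1, Calr, Canx and Pdia6), against 37 of the 32851 mouse promoters searched (27025 gene symbols), or 0.113% of promoters. The element was chosen as one already known to link members, so these shares are a description and not a test of enrichment. The promoters of Hspa5, Hsp90b1 and Calr, the chaperones the comparisons below turn on, and of Pdia3 and Sdf2l1, which hold no match and had the largest differences from rest cells in class II-high cells, are printed on the gene's own strand with ERSE matches in capitals. They lie at chr2:34771840-34772089 (+), chr10:86705445-86705694 (-), chr8:84846932-84847181 (-), chr2:121413652-121413901 (+) and chr16:17132384-17132633 (-).
Hspa5: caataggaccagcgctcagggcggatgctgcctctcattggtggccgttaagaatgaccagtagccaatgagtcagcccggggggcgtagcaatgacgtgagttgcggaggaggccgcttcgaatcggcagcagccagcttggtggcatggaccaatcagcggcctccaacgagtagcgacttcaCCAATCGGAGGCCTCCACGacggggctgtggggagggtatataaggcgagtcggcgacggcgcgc
Hsp90b1: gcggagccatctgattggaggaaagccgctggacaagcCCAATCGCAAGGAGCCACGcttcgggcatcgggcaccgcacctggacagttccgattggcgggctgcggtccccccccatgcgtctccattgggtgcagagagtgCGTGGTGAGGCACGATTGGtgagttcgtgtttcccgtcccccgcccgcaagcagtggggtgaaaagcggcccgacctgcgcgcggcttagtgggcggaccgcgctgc
Calr: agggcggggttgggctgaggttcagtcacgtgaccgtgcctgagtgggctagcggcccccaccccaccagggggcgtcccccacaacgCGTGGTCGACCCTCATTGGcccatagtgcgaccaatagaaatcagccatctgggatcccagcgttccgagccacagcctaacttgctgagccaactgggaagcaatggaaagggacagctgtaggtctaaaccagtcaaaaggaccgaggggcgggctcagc
Pdia3: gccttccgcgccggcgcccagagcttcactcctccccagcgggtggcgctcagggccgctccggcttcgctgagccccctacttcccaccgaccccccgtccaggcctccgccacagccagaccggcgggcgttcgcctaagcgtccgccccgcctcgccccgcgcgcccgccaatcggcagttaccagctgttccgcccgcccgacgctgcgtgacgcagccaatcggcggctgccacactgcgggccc
Sdf2l1: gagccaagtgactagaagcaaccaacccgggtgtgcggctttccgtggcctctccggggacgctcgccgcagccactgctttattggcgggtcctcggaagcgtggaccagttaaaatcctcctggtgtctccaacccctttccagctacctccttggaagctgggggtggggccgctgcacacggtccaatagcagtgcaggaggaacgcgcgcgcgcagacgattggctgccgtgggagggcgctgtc
The match in Hspa5 began 65 bases before the start, and Hsp90b1 held a pair of matches, 1 on each strand. The matches of Canx and Pdia6 began 145 and 98 bases before the start. No member promoter held ERSE-II (ATTGG, any base and CCACG, in 0.0304% of promoters), the core TGACGTGG (0.563%) or the amino acid response element TGATGNAAT (0.816%). A match describes letters and not binding, and no match says only that these letters are not in this window.

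Cells were assigned to states by 3 marker genes at 1000 TPM (RSEM's length-normalised transcript abundance, which sums to 1000000 in every cell). The Mpo-high state held 12 cells of mouse 2 and 13 of mouse 1. Class II-high cells (H2-Aa, a chain of MHC class II) numbered 19 in mouse 2 and 14 in mouse 1, S100a8-high cells 8 in mouse 2 and 0 in mouse 1, and rest cells, under all 3 thresholds, 6 in mouse 2 and 20 in mouse 1. Another 3 cells of mouse 2 and 1 of mouse 1 passed more than 1 threshold and were left out of the state comparisons. Kit reached 1 TPM in 64.6% of mouse 2 cells and 83.3% of mouse 1 cells, but in only 2 of the 8 S100a8-high cells, so that the label of c-Kit selection was not visible in the RNA of every cell. All 7 markers of type 1 conventional dendritic cells, among them Xcr1, Clec9a and Batf3, were called higher in class II-high than in rest cells. The rest state was mixed and not free of Mpo. Mpo was at 100 TPM or more in 1 of its 6 cells in mouse 2 and 10 of its 20 in mouse 1. Summed mast cell and basophil markers reached 2835 TPM in mouse 2 and 7403 TPM in mouse 1 in rest cells, and 6482 and 5651 TPM in Mpo-high cells. Erythroid markers reached 9240 TPM in rest cells of mouse 1. Of 7 plasma cell genes, Sdc1, Mzb1 and Tnfrsf17 were below 1 TPM in every cell. Fkbp11 and Derl3, which are themselves ER genes, and Prdm1 and Igj reached 1 TPM in some cells, and the summed level of the 7 was 0 in the median cell of each mouse and reached 285 TPM in mouse 2 and 303 TPM in mouse 1 at most, both in Mpo-high cells. States differed in the number of genes detected per cell. Its median was 4041 in mouse 2 and 4463 in mouse 1 for Mpo-high cells, 2636 and 2921.5 for class II-high cells, 2616.5 for S100a8-high cells, and 4251.5 and 3587.5 for rest cells. The 10 most abundant genes took a median of 56.2% of TPM in S100a8-high cells, 24.6% and 22.4% in class II-high cells, 9.18% and 8.93% in Mpo-high cells, and 9.53% and 8.99% in rest cells of mouse 2 and mouse 1.

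By their medians over all cells the members fell into an abundant and a scarce set, which overlapped in single cells. Canx had the highest median, 642 TPM in mouse 2 and 548 TPM in mouse 1. Hsp90b1 had medians of 412 and 425 TPM, Pdia3 267 and 420 TPM, Hspa5 175 and 349 TPM, Calr 166 and 475 TPM, and Pdia6 80.2 and 345 TPM. The order differed between the mice: Calr was below Hspa5 in mouse 2 and above it in mouse 1, and within a mouse the quartiles of these 6 genes overlapped. Sdf2l1, a stress-induced partner of Hspa5, had medians of 8.37 and 0.63 TPM in mouse 2 and mouse 1, Xbp1 7.07 and 12.3 TPM, and Pdia4 0.81 and 1.06 TPM. Ddit3 was detected at 1 TPM in 5 cells of mouse 2, a share of 10.4% (exact binomial 95% interval 3.47% to 22.7%), and for mouse 1 the count was 13 cells, a share of 27.1% (15.3% to 41.8%). These intervals cover counting error over cells only.

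**Figure D1:**
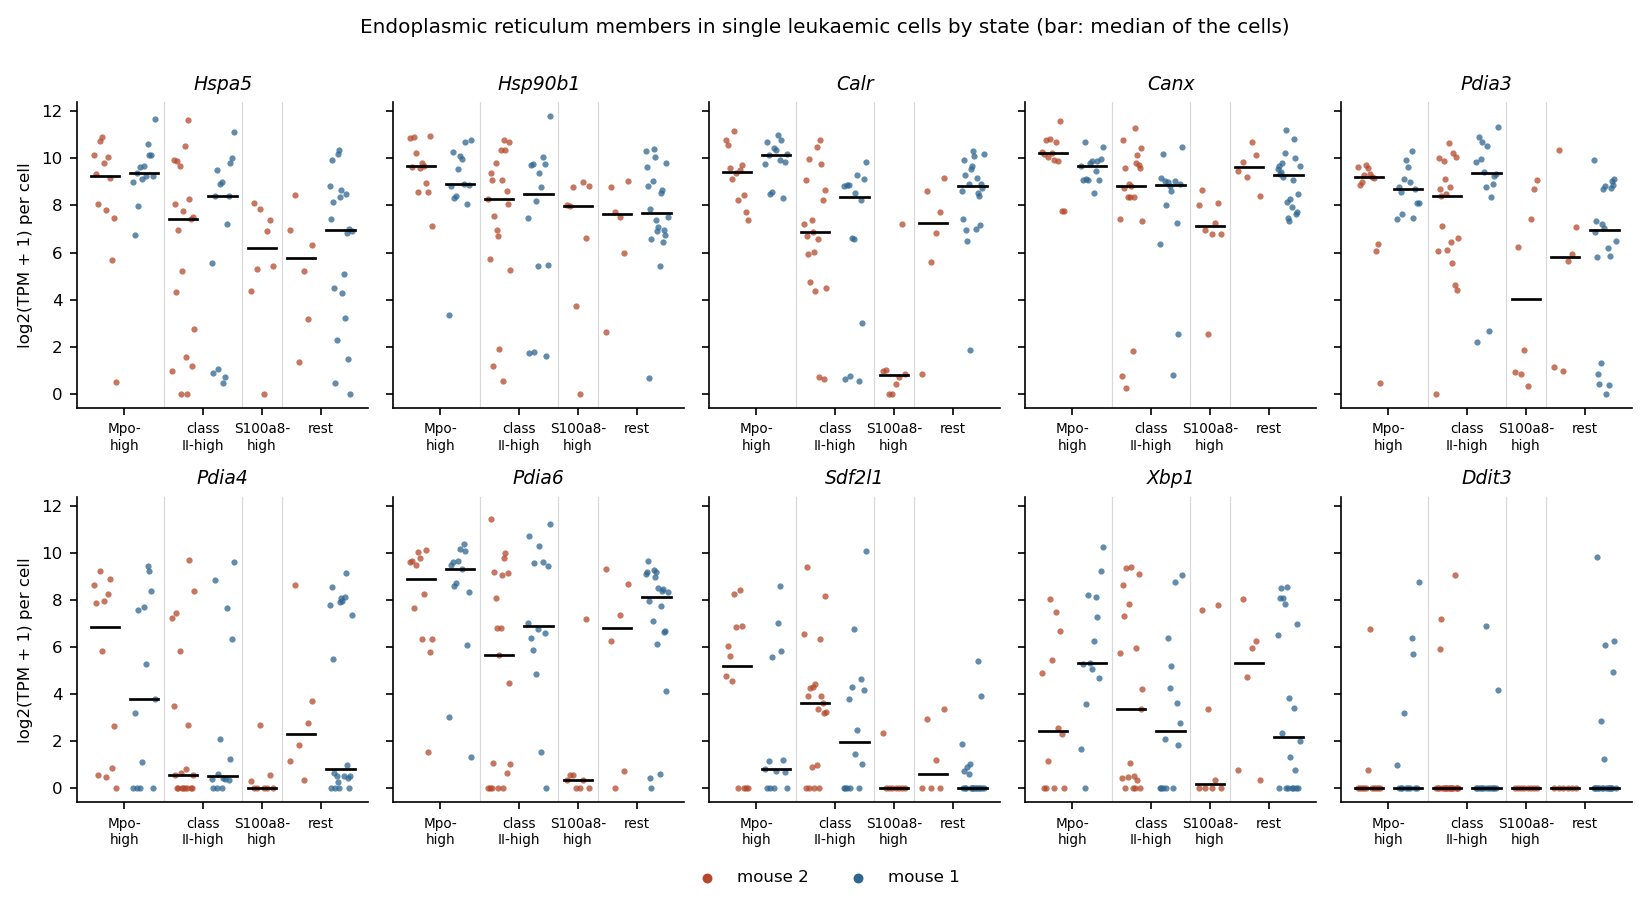
Each point is 1 cell, coloured by mouse, with log2(TPM + 1) of a member on the y axis and the cell states on the x axis; bars mark medians. Calr was near 0 in all but 1 of the S100a8-high cells and high in every Mpo-high cell, whereas Sdf2l1, Pdia4, Xbp1 and Ddit3 were at or near 0 in many cells of every state.

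Mpo-high cells had the highest median share of ER folding transcripts of the 4 states. The 10 members together made up a median of 0.550% of TPM in Mpo-high cells of mouse 2 and 0.539% in those of mouse 1, against 0.258% and 0.248% in class II-high cells and 0.182% and 0.252% in rest cells. Hspa5, the ER Hsp70 chaperone, was 9.11-fold higher in Mpo-high than in rest cells, the only member that passed the test in this comparison. Means of log2(TPM + 1) per mouse and state were compared with limma, with the mouse as a block and Benjamini-Hochberg adjustment over the 11994 genes fitted, of which 0.267% were called higher at an adjusted p under 0.05 and 0.025% lower. The fit rests on 2 animals.

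Hspa5 had a lowest, median and highest value of 0.42, 606 and 1902 TPM in Mpo-high cells of mouse 2 and 106, 664 and 3244 TPM in those of mouse 1, against 1.54, 57.5 and 344 TPM in rest cells of mouse 2 and 0, 124 and 1323 TPM in those of mouse 1. The medians were apart in both animals while single cells overlapped, and 1 Mpo-high cell of mouse 2 had almost none. The difference was 3.19 ± 0.64 (SE, limma, adjusted p = 0.0295), with 3.06 in mouse 2 and 3.31 in mouse 1. Hspa5 stood at rank 29 of the 35 genes called in either direction. Above it were Mpo, whose call was fixed by the definition of the state, and the azurophilic granule enzyme genes Elane, Ctsg and Prtn3. Genes that do not code for granule enzymes ranked above it too, such as Tyrobp, Clec12a, Irf8 and Car2, the last of them lower in Mpo-high cells. The call was lost in 7 of 12 alternative settings, with adjusted p from 0.00321 to 0.554 and differences from 2.25 to 3.68, and it was 0.120 with the number of detected genes removed.

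The other folding genes were higher in Mpo-high cells by amounts that did not pass the test. Calr had a lowest, median and highest value of 165, 690 and 2256 TPM in Mpo-high cells of mouse 2 and 313, 1118 and 2033 TPM in those of mouse 1, against 0.82, 161 and 576 TPM in rest cells of mouse 2 and 2.62, 454 and 1261 TPM in those of mouse 1, a difference of 2.17 ± 0.61 (adjusted p = 0.167). Pdia3 (ERp57), the isomerase that works with calnexin and calreticulin, differed by 2.80 ± 0.61 (adjusted p = 0.0528), with almost equal values in the mice (2.88 in mouse 2, 2.73 in mouse 1). Hsp90b1 differed by 1.91, Pdia6 by 1.86, Sdf2l1 by 2.37 and Pdia4 by 1.29, each with an adjusted p of 0.20 or more. Canx, the membrane-bound counterpart of calreticulin, differed by only 0.45 ± 0.45. The stress regulators Xbp1 and Ddit3 differed by 0.60 and 0.50, and Xbp1 went in opposite directions, -1.14 in mouse 2 and 2.35 in mouse 1. All 10 fitted values lay above 0, as did 60.7% of the genes fitted, and the median was 1.88 over the members and 0.16 over all genes.

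**Figure D2:**
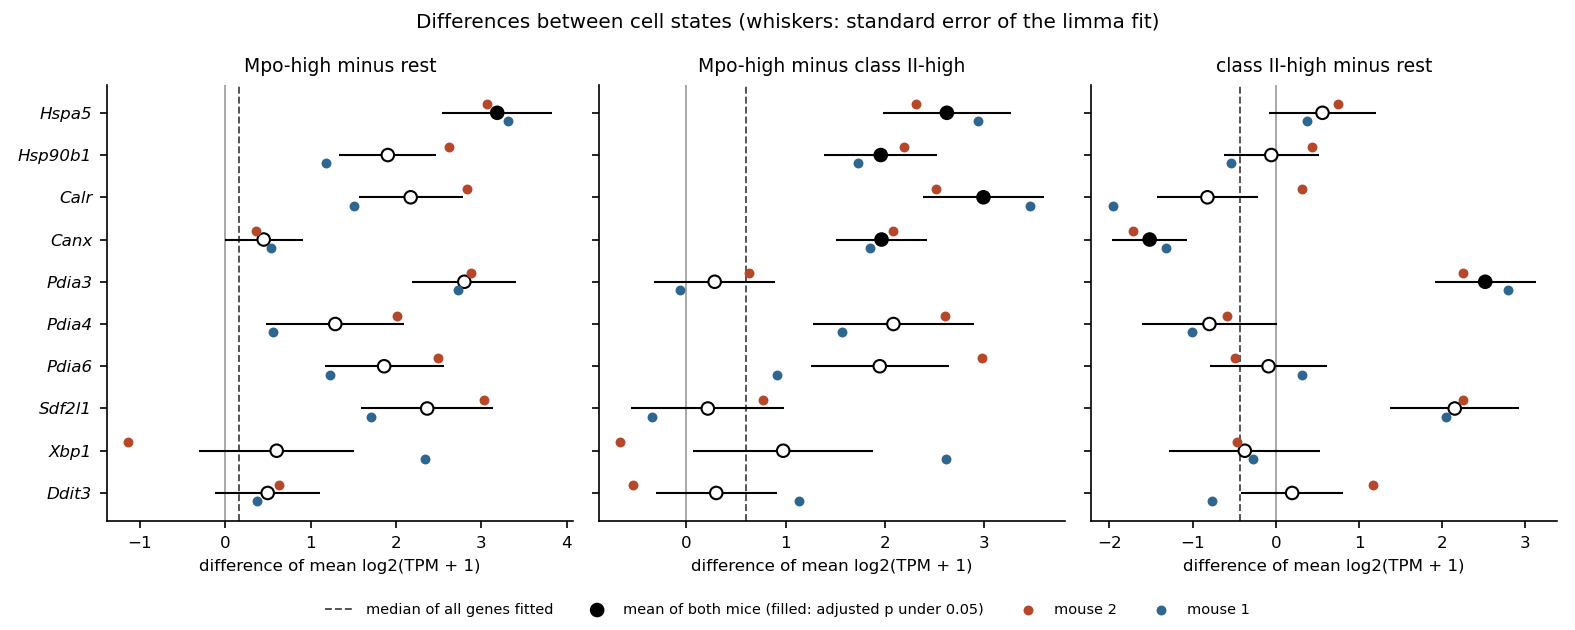
Differences of mean log2(TPM + 1) between states for each member (x axis), as the fitted mean of both mice with its standard error and as the value in each mouse; the dashed line is the median of all genes fitted. Hspa5, Hsp90b1, Calr and Canx passed the test in Mpo-high against class II-high cells. Hspa5 passed it in Mpo-high against rest cells. In class II-high against rest cells Pdia3 passed it as higher and Canx as lower.

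Against class II-high cells, 4 members were called higher in Mpo-high cells and none lower; 15.1% of all genes were called higher in this comparison and 2.48% lower. Calr was 7.97-fold higher (difference 3.0 ± 0.61, limma, adjusted p = 0.00241). Its lowest, median and highest values in class II-high cells were 0.56, 118 and 1743 TPM in mouse 2 and 0.48, 331 and 911 TPM in mouse 1, against which the Mpo-high values above were mostly higher but overlapped. Hspa5 was 6.17-fold higher (difference 2.63 ± 0.64, adjusted p = 0.00852), Canx 3.91-fold (1.97 ± 0.45, adjusted p = 0.00587) and Hsp90b1 3.89-fold (1.96 ± 0.57, adjusted p = 0.0230). By mean TPM these contrasts were smaller. In mouse 2 and mouse 1, Hsp90b1 averaged 965 and 755 TPM in Mpo-high against 530 and 627 TPM in class II-high cells. Canx averaged 1275 and 838 against 668 and 469 TPM, and Hspa5 719 and 925 against 461 and 480 TPM. Pdia6 (1.95, adjusted p = 0.0575) and Pdia4 (2.09, adjusted p = 0.0783) did not pass. Pdia3 and Sdf2l1 differed by 0.29 ± 0.61 and 0.22 ± 0.77, and Pdia3 had opposite signs in the mice (0.63 in mouse 2, -0.06 in mouse 1).

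The 5 members with an ERSE in the printed window had differences of 1.95 to 3.0 in this comparison, and the 5 without one 0.22 to 2.09. All 4 members called were among those with a match. The members with a match all belong to the abundant set, and those without one are Pdia3 and the scarce set (Sdf2l1, Xbp1, Pdia4 and Ddit3). Match and abundance can therefore hardly be told apart here. The 10 other fitted genes with an ERSE, among them the co-chaperones Creld2 and Dnajc3 and the degradation factors Derl3 and Syvn1, had a median difference of 0.25 and none was called. Class II-high cells had fewer detected genes, and with that number removed by a linear fit all 4 calls were lost, Calr to 0.23, Hspa5 to 0.24, Hsp90b1 to 0.29 and Canx to 0.92; detected-gene numbers ran from 3474 to 6018 in Mpo-high and from 1604 to 3534 in class II-high cells of mouse 2, so that state and detected genes can hardly be told apart. Over 12 alternatives the calls were kept in 9 for Calr, 8 for Hspa5, 8 for Canx and 7 for Hsp90b1. In the comparisons with rest cells, members with and without an ERSE overlapped widely. For Mpo-high against rest cells the differences were 0.45 to 3.19 with a match and 0.50 to 2.80 without one. For class II-high against rest cells they were -1.52 to 0.56 and -0.80 to 2.52. There the 1 member called higher held no match, and the 1 called lower held one.

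Relative to rest cells, class II-high cells had more Pdia3 and less Canx. Pdia3 was 5.72-fold higher in class II-high than in rest cells (difference 2.52 ± 0.61, limma, adjusted p = 0.0103), with 2.24 in mouse 2 and 2.79 in mouse 1. It had a lowest, median and highest value of 0, 335 and 1619 TPM in class II-high cells of mouse 2 and 3.60, 671 and 2581 TPM in those of mouse 1, against 0.98, 54.9 and 1295 TPM in rest cells of mouse 2 and 0, 123 and 964 TPM in those of mouse 1. Besides glycoprotein folding, Pdia3 is part of the peptide loading complex of MHC class I. Canx was lower in class II-high cells (difference -1.52 ± 0.45, adjusted p = 0.0357), with -1.71 in mouse 2 and -1.32 in mouse 1. Its lowest, median and highest values were 0.19, 455 and 2497 TPM in class II-high cells of mouse 2 and 0.74, 467 and 1424 TPM in those of mouse 1, against 338, 811 and 1675 TPM in rest cells of mouse 2 and 161, 623 and 2323 TPM in those of mouse 1. No rest cell was below 161 TPM of Canx. Of all genes, 2.9% were called higher and 8.2% lower in class II-high cells. The call of Pdia3 was kept in 9 of 12 alternatives (adjusted p from 0.00339 to 0.110) and that of Canx in 3 of 12 (0.0289 to 0.692).

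Sdf2l1 was scarce in rest cells. No rest cell reached 100 TPM, and the highest had 9.31 TPM in mouse 2 and 41.2 TPM in mouse 1. In class II-high cells its median was 11.4 TPM in mouse 2 and 3.21 TPM in mouse 1, with single cells up to 674 and 1079 TPM. Mpo-high cells had medians of 37.5 and 0.78 TPM and maxima of 343 and 380 TPM. The differences from rest cells, 2.15 ± 0.77 in class II-high cells (adjusted p = 0.0779) and 2.37 ± 0.77 in Mpo-high cells (adjusted p = 0.236), did not pass the test.

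The 8 S100a8-high cells, all of mouse 2, had the lowest ER transcript share, a median of 0.0777% of TPM with a highest cell of 0.147%. They are described without a test, since they came from 1 animal. Calr had values from 0 to 1.03 TPM in 7 of them and 146 TPM in the eighth, so that every S100a8-high cell was below every Mpo-high cell of mouse 2, of which the lowest had 165 TPM. It was the only member whose cells did not overlap between these groups, and 1.06% of the genes compared were apart in that direction. Pdia6 was at or below 0.49 TPM in 7 cells and at 147 TPM in the same eighth cell. That cell also had the highest Mpo (776 TPM) and the most detected genes (3897) of the 8. Pdia4 reached 5.53 TPM at most, Sdf2l1 4.12 TPM, and Ddit3 was at 0 in all 8 (exact binomial 95% interval 0 to 36.9% for the share of cells with a value of 1 TPM or more). Hspa5, Hsp90b1 and Canx remained present in most of these cells. Canx had a lowest, median and highest value of 4.77, 138 and 408 TPM in S100a8-high cells, Hsp90b1 0, 254 and 506 TPM and Hspa5 0, 81.2 and 278 TPM.

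On the log2 scale the S100a8-high minus Mpo-high difference within mouse 2 was -7.90 for Calr, -6.76 for Pdia6 and -4.65 for Pdia4, against -2.63 for Hspa5, -2.95 for Hsp90b1 and -3.11 for Canx. All members but Xbp1 and Ddit3 were at -1 or less, as were 45.7% of the 9841 genes compared, and the median of all genes was -0.86. S100a8-high cells had fewer detected genes and most of their TPM in a few transcripts. With TPM rescaled after leaving out genes that reach 10000 TPM in any cell, Calr still differed by -7.55 and Pdia6 by -6.62, Hspa5 by -1.71 and Canx by -2.03. Against rest cells of mouse 2, Hspa5 was not lower in S100a8-high cells (0.43, rescaled 1.37). Hsp90b1 differed by -0.32 (rescaled 0.60) and Pdia3 by -0.76 (rescaled 0.07). Calr (-5.06, rescaled -4.69), Pdia6 (-4.26, rescaled -4.04) and Canx (-2.74, rescaled -1.65) were lower. So were Pdia4, Xbp1 and Sdf2l1, and Ddit3 was at 0 in both states. Against class II-high cells every member was lower, Hspa5 at -0.31, and only Hspa5 changed sign when rescaled (0.35). The part of depth in these values was not tested.

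Within the cells under 1000 TPM of both H2-Aa and S100a8 (18 cells of mouse 2 and 33 of mouse 1), the members were followed against Mpo as a continuous level. Spearman correlations over cells describe these cells only, since cells of a mouse share library preparation and differ in depth. Hspa5 had a correlation with Mpo of 0.78 in mouse 2 and 0.52 in mouse 1, Calr 0.76 and 0.62, Hsp90b1 0.60 and 0.44, Pdia3 0.59 and 0.44, Pdia6 0.63 and 0.43, and Sdf2l1 0.67 and 0.36. Canx had 0.48 and 0.14, Pdia4 0.49 and 0.06, Xbp1 0.02 and 0.43, and Ddit3 0.09 and 0.12. The median over members was 0.59 in mouse 2 and 0.43 in mouse 1, against 0.08 in both mice over all 4851 genes. A correlation above 0.3 in both mice was found for 6 of the 10 members and for 4.74% of genes.

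Over all cells of mouse 2 and mouse 1, detected-gene number had median correlations of 0.32 and 0.25 with members. Over all genes these were 0.33 and 0.23. In the cells under both thresholds, detected-gene number had median correlations of 0.44 and 0.35 with members, against 0.23 and 0.17 over all genes. With it removed, the median correlation with Mpo was 0.51 in mouse 2 and 0.19 in mouse 1, and Hspa5, Hsp90b1 and Calr stayed above 0.3 in both mice, against 2% of genes. Over all 48 cells of each mouse, class II-high cells included, the median was 0.35 in mouse 2 and 0.23 in mouse 1, against 0.21 and 0.15 over all genes. Above 0.3 in both mice were 3 members and 9.11% of genes. With detected-gene number removed over all cells, the median over members was 0.18 in mouse 2 and 0.12 in mouse 1, against 0.01 and -0.01 over all genes.

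**Figure D3:**
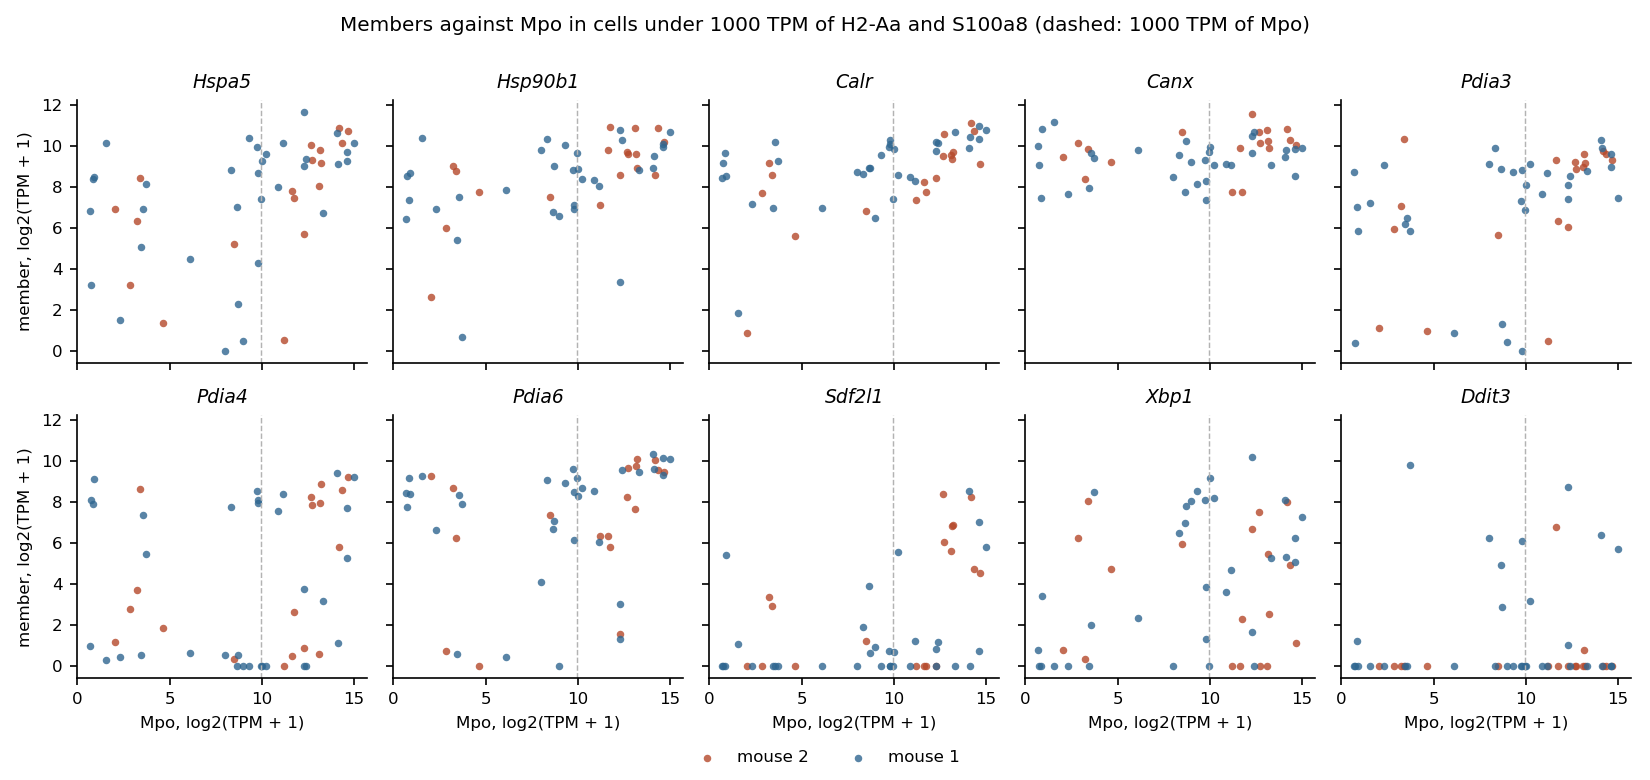
Each point is 1 cell under 1000 TPM of H2-Aa and S100a8, with Mpo on the x axis and a member on the y axis, both as log2(TPM + 1). Calr and Pdia6 were high in all cells at the right edge, Canx was high at every Mpo level, and Ddit3 was at 0 in most cells throughout.

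By level of Mpo, Calr had a median of 299 TPM in mouse 2 (4 cells) and 342 TPM in mouse 1 (7 cells) under 10 TPM of Mpo. At 10 to 1000 TPM of Mpo its median was 79.8 TPM (2 cells) and 486 TPM (13 cells), and at 1000 to 10000 TPM 662 TPM (9 cells) and 864 TPM (7 cells). In cells with Mpo at 10000 TPM or more it was 1733 TPM (3 cells) and 1521 TPM (6 cells). The highest bin had the highest median in both mice, and the 2 lowest bins were not ordered alike. Among Mpo-high cells alone, the correlation with Mpo was 0.72 in mouse 2 (12 cells) and 0.82 in mouse 1 (13 cells) for Calr, and 0.71 in both mice for Pdia6, whereas Hspa5 had 0.85 in mouse 2 and 0.19 in mouse 1. In these few cells the 95th percentile over all genes was 0.58 in mouse 2 and 0.51 in mouse 1. Above 0.3 were 8 members in mouse 2 and 4 in mouse 1, against 24.6% and 17.2% of genes. Ddit3 was at 0 in all 3 cells of mouse 2 with 10000 TPM of Mpo or more and reached 82.2 TPM at most in the 6 of mouse 1.

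Over the pooled states of a mouse, the members on average varied together from cell to cell. Differences between states enter these correlations, and their part was not tested. With the number of detected genes removed by a linear fit, the mean correlation over the 45 pairs was 0.20 in mouse 2 and 0.17 in mouse 1, against 0.01 over all gene pairs. Above 0.3 were 17 pairs in mouse 2 (37.8%) and 8 in mouse 1 (17.8%), against 4.02% and 3.07% of all pairs. All pairs are those of genes detected in 12 cells of each mouse or more, which Ddit3 was not (5 cells in mouse 2). The mice differed for Xbp1, whose median correlation with the other members was 0.02 in mouse 2 and 0.19 in mouse 1. Its highest pairs were with Sdf2l1 (0.25 in mouse 2 and 0.40 in mouse 1) and, in mouse 1, with Hspa5 (0.34, against 0.05 in mouse 2). Ddit3 had the lowest median, 0.01 in mouse 2 and 0.06 in mouse 1, where Pdia4 had the same value; its highest pairs were with Calr in mouse 2 (0.15) and with Sdf2l1 (0.23) and Xbp1 (0.23) in mouse 1.

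**Figure D4:**
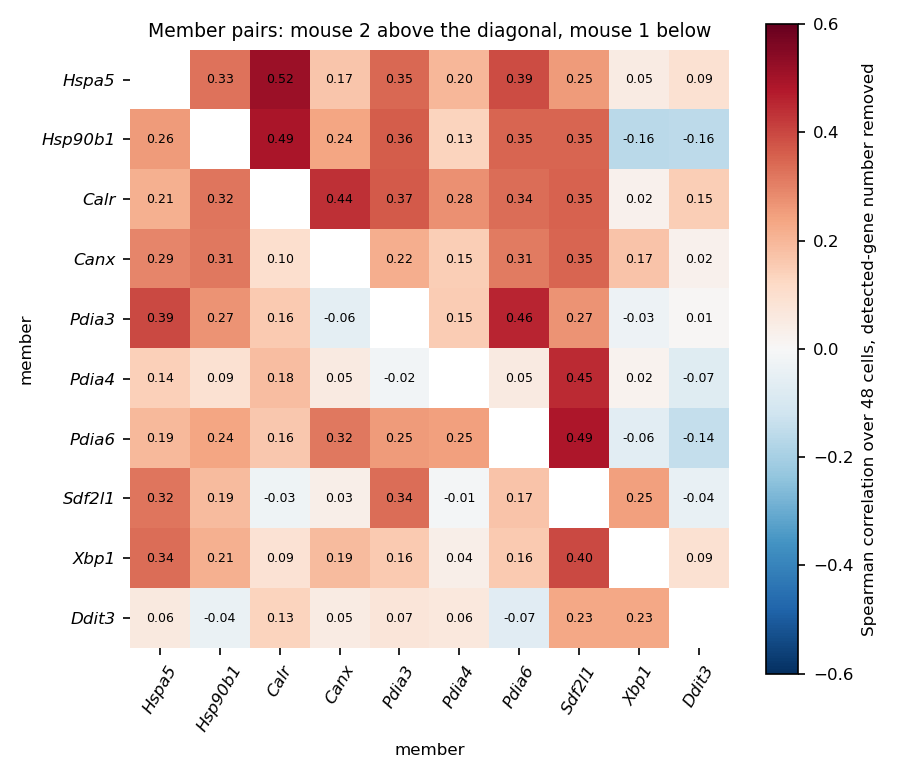
Spearman correlation of each pair of members over the 48 cells of a mouse, with detected-gene number removed, mouse 2 above the diagonal and mouse 1 below. Hspa5 with Calr was the highest pair of mouse 2 (0.52) and Sdf2l1 with Xbp1 the highest of mouse 1 (0.40).

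For each member the genes with the most similar levels were listed. By the mean correlation over both mice among 4654 genes, Hspa5 was followed by Ssr1 (0.41), a subunit of the translocon-associated complex, then Pdia3 (0.37), Krtcap2 (0.37), a subunit of the oligosaccharyl transferase, and Calr (0.36). Pdia6 was led by Ssr3 (0.36), another translocon-associated subunit, with Pdia3 (0.36) next and Sdf2l1 (0.33) at rank 5, and Canx by Khsrp (0.50) and Ssr1 (0.44). Calr was led by ribosomal protein genes, Rpl36al (0.50) and Rps7 (0.43). Sdf2l1 was led by Cd74 (0.47), the class II invariant chain, with Cst3 (0.44) and H2-Ab1 (0.44), and Pdia3 by Btla (0.47), Ctsz (0.47) and Aif1 (0.46), genes of dendritic and myeloid cells. Ddit3 was led by Hspa1a (0.38), an inducible cytosolic Hsp70.

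Other genes of the secretory pathway, listed by role, were set beside the members. In Mpo-high against rest cells none of them was called in either direction outside the granule cargo list, of which 5 of 7 were higher (Mpo, Elane, Ctsg, Prtn3 and Ms4a3, a membrane protein of granulocyte-monocyte progenitors and not itself a cargo; the Mpo call was fixed by the definition of the state), while Hspa5 was called among the members. The median difference was 1.86 for the 7 fitted genes of the glycoprotein folding cycle, 1.61 for the 9 of the oligosaccharyl transferase, 0.89 for the 11 co-chaperones, 0.82 for the 16 of translocation, 0.77 for the 14 of ER-associated degradation, 0.66 for the 13 other isomerases and 0.50 for the 6 stress sensors and processing proteases. Outside the ER, mitochondrial chaperones had a median of 0.53, above that of the stress sensors, cytosolic chaperones 0.19 and the 11 genes of the integrated stress response 0, against 0.16 for all genes.

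Against class II-high cells, where 15.1% of all genes were called higher, 6 of 9 oligosaccharyl transferase genes were called higher in Mpo-high cells, among them Stt3a (difference 3.84) and Rpn2 (3.62), and 7 of 16 translocation genes, among them Spcs2 (3.53) and Ssr2 (3.08). Also called higher were Mcfd2, Ganab and Prkcsh of the glycoprotein cycle (3 of 7), P4hb and Prdx4 (2 of 13 isomerases), Manf and Sil1 (2 of 11 co-chaperones), Edem2 and Vcp (2 of 14 degradation genes), and Psat1 and Cebpb (2 of 11 genes of the integrated stress response). The shares of isomerases, co-chaperones, degradation and integrated stress response genes lay near that of all genes. None of the 6 sensors was called. Chaperones outside the ER were called too, 7 of 14 cytosolic ones such as Hsp90aa1 (3.55) and 4 of 6 mitochondrial ones such as Hspd1 (4.0), so that the difference from class II-high cells was not confined to the ER lists. As given above, with detected-gene number removed no member was called in this comparison.

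In class II-high against rest cells, Ppib, an ER proline isomerase, was called higher (2.61), and averaged 1133 TPM in class II-high cells of mouse 2 and 1226 TPM in those of mouse 1, against 351 and 512 TPM in rest cells. Called lower, as were 8.2% of all genes, were Sec11c, Spcs2 and Srp14 of the 16 translocation genes, the protease Mbtps1, Psat1, 6 of 14 cytosolic and 2 of 6 mitochondrial chaperones. Herpud1, a stress-induced degradation factor and the most abundant of its list, averaged 1053 TPM in class II-high cells of mouse 2 and 499 TPM in those of mouse 1, against 79.9 and 156 TPM in rest cells, and was not called.

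**Figure D5:**
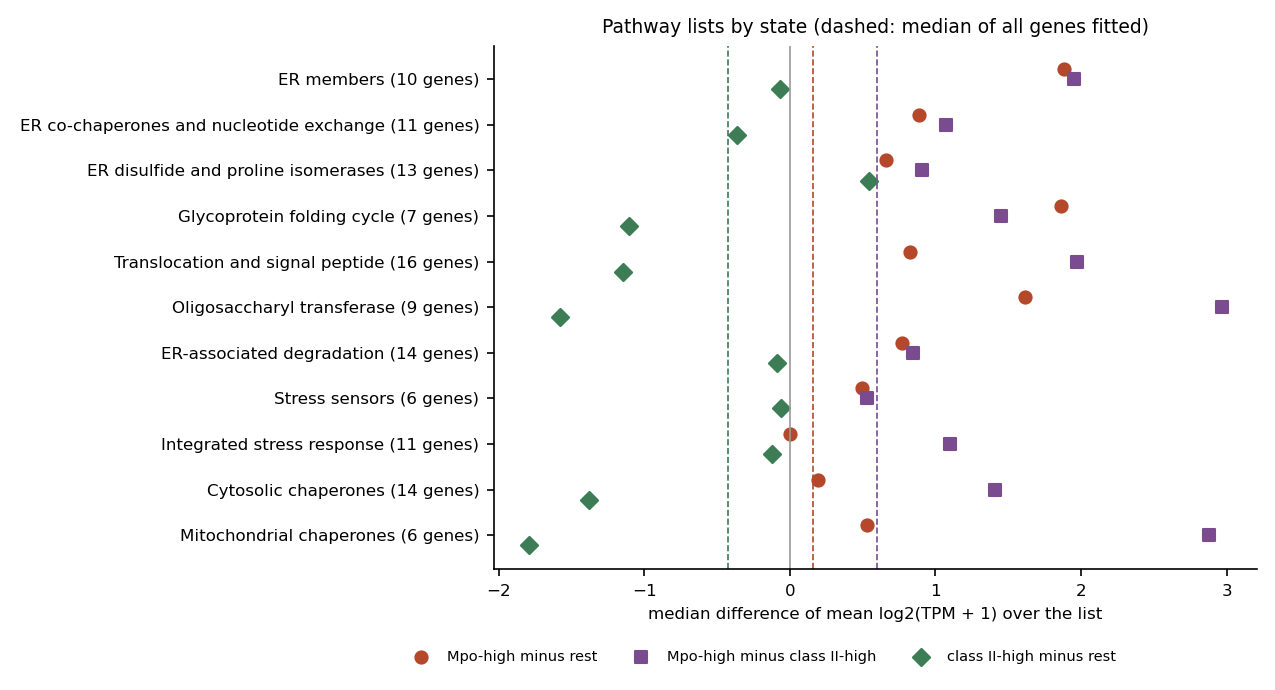
Median difference of mean log2(TPM + 1) over the fitted genes of each list (x axis) in 3 state comparisons, with the number of genes fitted in parentheses and dashed lines for the medians of all genes. The ER lists lay between 0.50 and 1.88 in Mpo-high against rest cells, and cytosolic chaperones at 0.19.

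Between the mice, 3 members differed by 1 or more on the log2 scale over all 48 cells. Pdia6 averaged 5.30 ± 4.08 in mouse 2 and 7.33 ± 3.09 in mouse 1 (mean log2(TPM + 1) ± SD over cells), a difference of -2.03. Calr averaged 6.53 ± 3.46 and 8.25 ± 2.65, a difference of -1.71, and Sdf2l1 3.12 ± 3.11 and 1.91 ± 2.69, a difference of 1.21. Of 11471 genes, 11.1% were at -1 or less and 1.53% at 1 or more, and the median was -0.63 over members and -0.19 over all genes. With 1 animal on each side there is no test. The mice held different mixtures of states, and within Mpo-high cells the differences were -0.16 for Pdia6, -0.59 for Calr and 1.85 for Sdf2l1. Within class II-high cells they were -2.23, 0.36 and 0.74. The RPKM table gave -2.35 for Pdia6, -0.17 for Calr and 1.39 for Sdf2l1.

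The 4 cells past more than 1 threshold were not alike. The mouse 2 cell with 6732 TPM of H2-Aa and 6730 TPM of Mpo combined 2685 TPM of Hsp90b1 and 2794 TPM of Canx with 92.9 TPM of Hspa5. The mouse 1 cell with 34099 TPM of Mpo and 1251 TPM of S100a8 had a member share of 0.786% of TPM, above the Mpo-high medians, and 852 TPM of Xbp1. Both mouse 2 cells with high S100a8 and Mpo, unlike 7 of the 8 S100a8-high cells above, had Calr (85.5 and 580 TPM) and Pdia6 (465.9 and 73.7 TPM).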

How the data were processed

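Single c-Kit-selected splenocytes were captured on Fluidigm C1 chips in 2 rounds of 52 and 56 cells, amplified with SMARTer chemistry and made into 1 Nextera XT library for each of 48 cells per round, per the labels' protocols; each cell has its own library, so no cell barcode is shared. The authors deposited TPM values for 23955 genes, made with RSEM per the file name, and RPKM values for 9310 genes, made with AltAnalyze per the file name. TopHat2, RSEM and Bowtie2 and the builds mm10 and mm9 are named in the submitters' processing notes; versions and roles are not given in the sources used here. TPM keeps no read depth, so read depth cannot be given here; genes detected (1 TPM) per cell took its place. The RPKM values served as an alternative for the difference between mice (9 of 10 members).

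From TPM, log2(TPM + 1) was taken, cells were assigned to states at 1000 TPM, and means per mouse and state (6 means) were fitted with limma 3.58.1 in R 4.3.3, with trend and the mouse as a block, over the 11994 genes whose mean reached 1 TPM in some mouse and state; 2 residual degrees of freedom were joined by 18.4 prior ones. Folds are 2 to the power of a difference of mean log2(TPM + 1). They understate changes of low genes, and cells near 0 can carry them above the ratio of mean TPM. For Calr (Mpo-high, class II-high cells, 7.97-fold) mean TPM in mouse 2 and mouse 1 was 840 and 1093 against 375 and 310. For Pdia3 (class II-high, rest cells, 5.72-fold) it was 448 and 914 against 257 and 231. For Hspa5 (Mpo-high, rest cells, 9.11-fold) it was 719 and 925 against 98.5 and 295. S100a8-high cells and differences between mice have no test. Correlations were computed within a mouse with scipy 1.17.1 ranks and are descriptions. Neighbours come from genes detected in 12 cells of both mice or more, without Gm and Rik names, and up to 5 per member were considered; genes of pathway lists were named where called (up to 4 by size) or most abundant. The fit was tested on simulated data. No doublet caller was run. The animal is the replicate, and cells are not replicates. Promoters are from RefSeq (GRCm38.p6) and matched all 10 members by symbol. The members, lists and tests were chosen with earlier results of these data known.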

Additional observations from a re-analysis of the deposited data

Results flagged for a closer look

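Among the 18 groups of 4 to 10 cells tested for an outlying cell on the log2 scale, 6 had one, and all lay in the 8 S100a8-high cells of mouse 2. Chance flags about 1 in 20 groups of independent, normally distributed values; here the same 8 cells serve every member and many values are at or near 0, so the number of flags cannot be read against that rate. Calr had 1 cell at 145.8 TPM, with the next at 1.03 TPM. Pdia6 had the same cell at 146.72 TPM, with the next at 0.49 TPM. Pdia4 had a highest cell at 5.53 TPM above 0.49 TPM, and Sdf2l1 one at 4.12 TPM above 0. At the low end, Hspa5 was at 0 in 1 cell, with the next at 19.5 TPM, and Canx at 4.77 TPM in the cell with the highest Pdia4, with the next at 108 TPM. Xbp1 differed in direction between the animals in Mpo-high minus rest cells, -1.14 in mouse 2 and 2.35 in mouse 1, and this difference was not tested.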

How the results depend on the processing

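Counts of called members moved under several settings. For Mpo-high against rest cells the count of 1 higher became 0 with the detected-gene number removed, with log2 of mean TPM, with no filter on low values, with pseudocount 0.1, with a state threshold of 300 TPM and with S100a8-high cells added to the rest, and became 2, with Pdia3 joining Hspa5, with a filter of a mean of 10 TPM, a threshold of 3000 TPM or genes over 10000 TPM left out. For Mpo-high against class II-high cells the count of 4 became 0 with detected-gene number removed, log2 of mean TPM or no filter, and 2 with the 300 TPM threshold or the widened rest, and 5, with Pdia6, with a filter of a mean of 10 TPM, pseudocount 0.1 or the 3000 TPM threshold. For class II-high against rest cells the count of 1 higher became 2 with detected-gene number removed and 0 with log2 of mean TPM, no filter or the widened rest. The count of 1 lower became 0 under those 4 settings, and also with cells past several thresholds assigned in order, genes over 10000 TPM left out, pseudocount 10 and the 300 TPM threshold. The cause was not tested.

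The animal links states within a mouse and was the replicate block; with no replicate block the counts became 0 for Mpo-high higher than rest and 0 for class II-high lower than rest, and the other counts stayed. No paired analysis was possible for the mice because they share no replicate number. With detected-gene number removed, Pdia4 (-0.77) and Pdia6 (-0.16) reversed in Mpo-high minus class II-high cells (adjusted p = 1.00 each, range over the alternatives 0.0685 to 1.00 and 0.0262 to 1.00), and the correlation of Pdia4 with Mpo in mouse 2 became -0.049. Between mice, the count of 1 member higher became 0 with pseudocount 10, in rest or class II-high cells alone and with log2 of mean TPM. The count of 2 lower (Pdia6, Calr) became 0 with log2 of mean TPM, 1 with RPKM (Pdia6), 1 without class II-high and S100a8-high cells (Ddit3, -1.29), and 3 with pseudocount 0.1 or in rest cells alone (Ddit3 joining) and in Mpo-high cells alone (Hspa5, Xbp1 and Ddit3, not Pdia6 or Calr); in class II-high cells alone it was Pdia6 and Pdia3. The median correlation with Mpo moved to 0.59 in mouse 2 without class II-high and S100a8-high cells. Settings that widened the rest or left out genes over 10000 TPM were chosen after seeing the data.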
